A study of Mus musculus with 10 samples.

Results

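Notch signalling genes were followed across the cell classes of the embryonic mouse pancreas: the ligand genes Dll1, Dll4 and Jag1, the receptor genes Notch1, Notch2 and Notch3, and the Hes and Hey family genes Hes1, Hes6 and Hey1. They were chosen by symbol, with earlier results of these data known, and are 9 of the 27716 genes measured in every matrix. Transcripts were counted in single cells as unique molecular identifiers (UMIs), and 57982 cells from 8 libraries were kept. Of these, 23734 fell into 10 classes of acinar-like, ductal-like, Ngn3+-like (marked by Neurog3, the transcription factor that starts endocrine differentiation), Fev+-like (marked by Fev, expressed in the endocrine precursors that follow), alpha-, beta-, delta- and epsilon-like, endothelial-like and mural-like cells. The last are smooth muscle cells and pericytes of vessel walls.

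Libraries of the first set, made with version 1 (v1) kits, came from whole pancreata of Swiss Webster embryos at E12.5, at E14.5 in batches 1 and 2, and at E17.5, with all live cells collected. Those of the second set, with version 2 (v2) kits, came from Swiss Webster embryos of the same ages (1 library for E12.5, 1 for E14.5, 1 for E17.5), and held live cells negative for the mesenchymal surface protein CD140a. The last library, also with the v2 kit, came from E14.5 Fev-Cre;ROSA26mTmG embryos, on a C57BL/6J background, in which Cre under Fev control switches a membrane TdTomato reporter to GFP, and held live GFP+ and TdTomato+ cells that had been sorted separately, so that the shares of its classes were set by the sort. Every library was a pool of pancreata and counted as 1 sample, and the 2 wells run at E17.5 with the v2 kit were summed to 1 library. No group carried a mutation of a Notch gene or a treatment.

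Notch receptors are cut when a ligand on a neighbouring cell binds them, and the released intracellular part joins the DNA-binding protein RBPJ to switch on target genes such as Hes1 and Hey1. In the developing pancreas, Hes1 is known as a repressor of Neurog3, while cells that express Neurog3 raise Dll1, so that a cell entering the endocrine lineage can hold back its neighbours. In vessels, Dll4 acts in endothelial cells and Notch3 in mural cells.

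Libraries held 15671934 to 196793242 UMIs. Haemoglobin genes took 60.9% of the UMIs at E17.5 with the v1 kit and 31.8% with the v2 kit, against 0.0128% in the Fev-Cre library. Pairs of v2 libraries shared 107 to 277 cell barcodes, pairs of v1 libraries 19 to 35, the 2 wells 119, and libraries of different kits 0. The class names were checked against markers. Neurog3 stood at 2655 to 6965 CPM (UMIs of a gene for every 1000000 UMIs of the class in a library) in Ngn3+-like cells and 21.6 to 113 CPM in ductal-like cells, and Pecam1, an endothelial adhesion gene, at 294 to 712 CPM in endothelial-like cells. Acta2, a smooth muscle actin gene, stood at 752 to 6095 CPM in mural-like cells, which also carried Col3a1, a mesenchymal collagen gene, at a median of 773 CPM. Fev+-like cells of the v2 E12.5 and v2 E14.5 libraries still held Neurog3 at 2645 and 1585 CPM, against 83.1 to 634 CPM in the other Fev+-like sums. Ngn3+-like cells of the same libraries held it at 2655 and 2671 CPM. Fev stood at 346 and 833 CPM in those Fev+-like sums and at 787 to 1815 CPM in the others.

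The genes lie on separate loci of GRCm38 (mm10). Dll1 lies at chr17:15367354-15376872 on the minus strand, Dll4 at chr2:119325784-119335962 on the plus strand and Jag1 at chr2:137081456-137116644 on the minus strand. Notch1 lies at chr2:26457903-26516663 on the minus strand, Notch2 at chr3:98013527-98150361 on the plus strand and Notch3 at chr17:32120820-32166852 on the minus strand. Hes1 lies at chr16:30064384-30067796 on the plus strand, Hes6 at chr1:91411483-91414038 on the minus strand and Hey1 at chr3:8663359-8667256 on the minus strand. All 9 are annotated as protein-coding.

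Neurog3 and related basic helix-loop-helix factors bind E-boxes. The promoters of the 3 genes that rose most among the 9 in Ngn3+-like cells (described further on) were therefore read for the letters CANNTG on both strands. The sequences are the 250 bases before a RefSeq start site of GRCm38.p6, 5′ to 3′ on the strand of the gene, with matches in capitals. The Dll1 window is chr17:15376933-15377182 (minus strand), the Dll4 window chr2:119325534-119325783 (plus strand) and the Hes6 window chr1:91414039-91414288 (minus strand).
Dll1: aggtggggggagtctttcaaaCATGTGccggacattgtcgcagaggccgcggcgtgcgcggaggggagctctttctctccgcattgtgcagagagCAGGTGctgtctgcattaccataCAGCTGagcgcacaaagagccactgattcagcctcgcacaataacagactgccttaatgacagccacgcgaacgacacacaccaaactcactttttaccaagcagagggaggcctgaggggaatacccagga
Dll4: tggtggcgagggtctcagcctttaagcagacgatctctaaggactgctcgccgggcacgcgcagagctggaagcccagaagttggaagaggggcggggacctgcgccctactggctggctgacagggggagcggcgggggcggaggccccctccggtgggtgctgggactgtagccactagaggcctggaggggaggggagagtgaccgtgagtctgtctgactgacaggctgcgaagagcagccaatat
Hes6: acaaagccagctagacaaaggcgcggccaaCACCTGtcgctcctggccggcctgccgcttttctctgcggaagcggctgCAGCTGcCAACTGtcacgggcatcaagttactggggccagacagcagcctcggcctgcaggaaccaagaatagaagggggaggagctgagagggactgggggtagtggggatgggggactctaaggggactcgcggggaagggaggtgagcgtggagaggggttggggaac
The Dll1 and Hes6 windows held 3 matches each, and the Dll4 window held 0. The table has a second start site for Dll1 and for Hes6, whose windows (chr17:15375824-15376073 and chr1:91413223-91413472, not printed) held 1 match each. CANNTG occurs in 66.2% of the 32841 promoter windows in the RefSeq table, so a match is common. The core of the RBPJ motif, TGGGAA, was read in the same way and is in 21.6% of all windows. It was in none of the 9 start site windows that the table holds for 7 of the 9 genes. Hes1 and Hey1 have no window in the table and were not searched. These matches describe the letters of the windows and not binding.

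**Figure D1:**
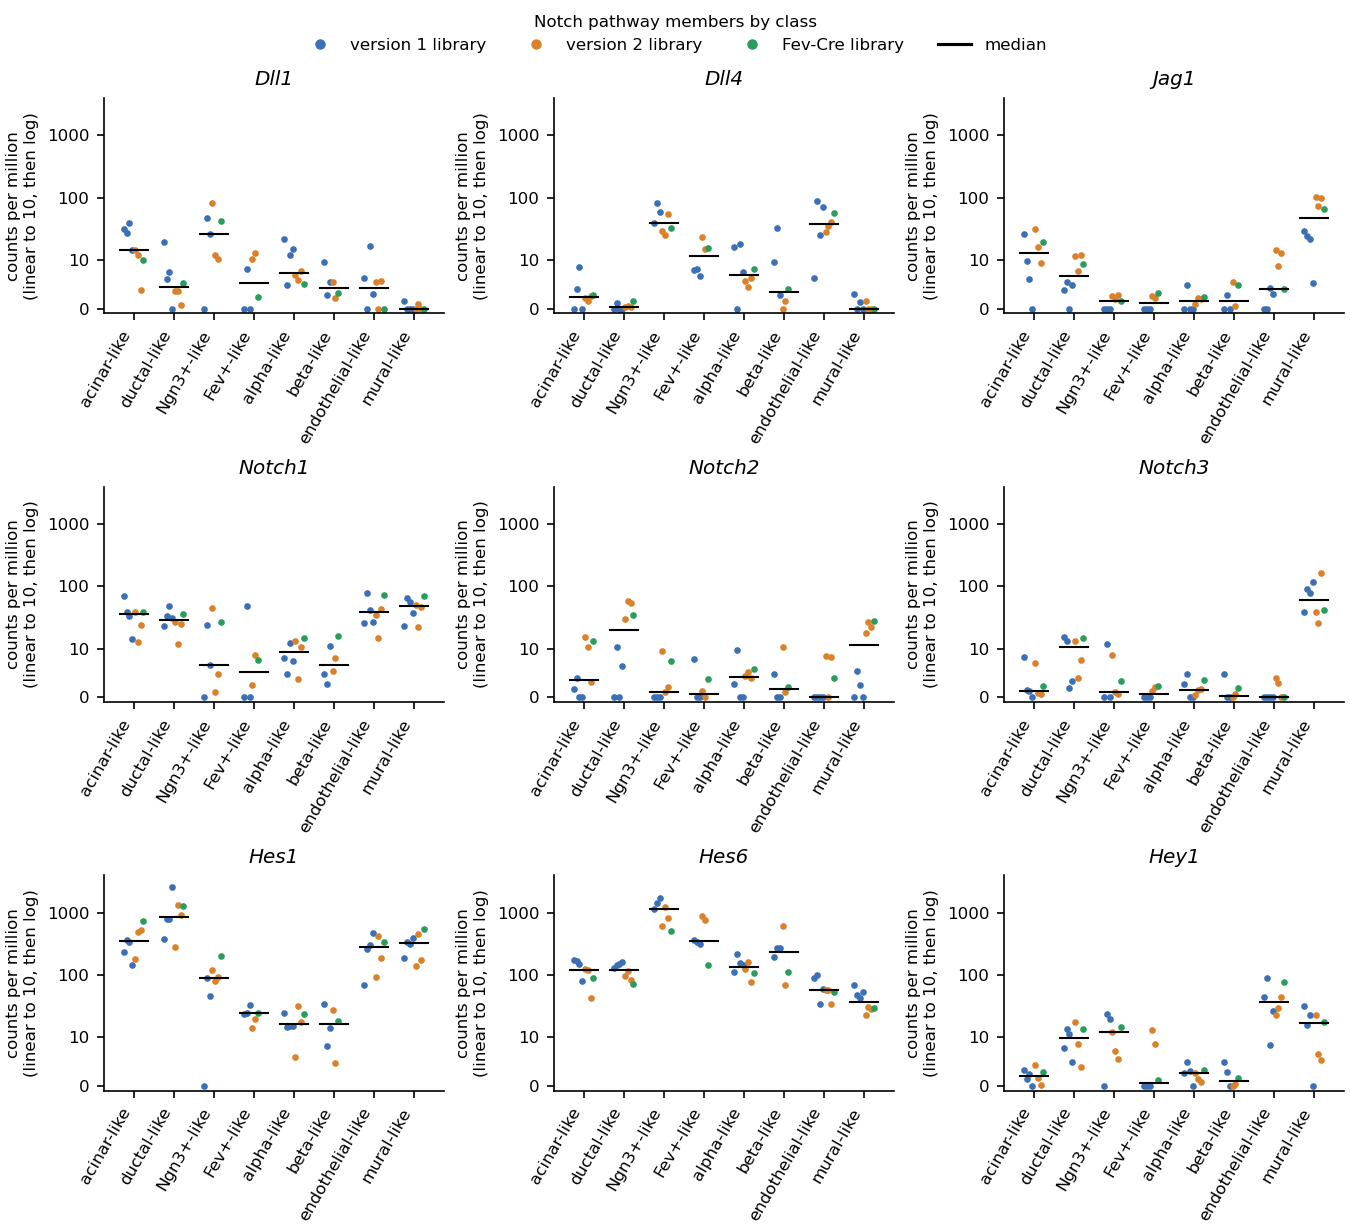
Level of each of the 9 genes in CPM (linear to 10, then logarithmic) in 8 classes, with 1 point for each library with 20 or more cells of the class and a line at the median. Dll4 was highest in Ngn3+-like and endothelial-like cells (medians 39.6 and 37.6 CPM), Notch3 in mural-like cells (60.1 CPM), Hes1 in ductal-like cells (856 CPM) and Hes6 in Ngn3+-like cells (1162 CPM).

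Ngn3+-like cells were set against ductal-like cells of the same library, since both belong to the epithelium from which endocrine cells arise. In Ngn3+-like cells the ligand genes Dll1 and Dll4 and the Hes family gene Hes6 were higher, and Hes1, Notch2, Notch3 and Jag1 were lower. All 9 genes passed the filter on low counts, and 7 of them were called, that is, had an adjusted p under 0.05 and a fold change of at least 2 in edgeR's quasi-likelihood test with the library as a block. Of all 10411 genes tested, 11.5% were called higher and 17.4% lower, against 3 and 4 of the 9. The median log2 fold change was -0.93 over the 9 genes and -0.13 over all genes tested.

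Dll4, a ligand known best from vessel sprouting, ranged over 25.6 to 82.7 CPM (median 39.6) in the 7 Ngn3+-like sums and 0 to 1.51 CPM (median 0.377) in the ductal-like sums. It was higher in 7 of 7 libraries with no overlap, on 203 and 37 UMIs in all (log2 fold change 5.86 ± 0.36 SE, edgeR adjusted p = 2.44e-10). Without the Fev-Cre library the log2 fold change was 6.49 (edgeR adjusted p = 7e-11). Dll1, the ligand tied to endocrine entry, ranged over 0 to 83.1 CPM (median 26.5) in Ngn3+-like cells and 0.818 to 19.5 CPM (median 5.27) in ductal-like cells. It was higher in 6 of 7 libraries (log2 fold change 2.92 ± 0.47 SE, edgeR adjusted p = 0.00033). The exception was v1 E12.5, whose 20 Ngn3+-like cells gave 75700 UMIs and 0 Dll1 counts. There 3 counts would be 39.6 CPM, and the 95% exact Poisson upper limit is 48.7 CPM. Jag1, the ligand of the Jagged family, went the other way. It ranged over 0 to 2.79 CPM (median 1.64) in Ngn3+-like cells and 0 to 11.99 CPM (median 7.70) in ductal-like cells, was lower in 6 of 7 libraries and rested on 11 Ngn3+-like UMIs (log2 fold change -2.32 ± 0.39 SE, edgeR adjusted p = 8.85e-05).

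Of the receptor genes, Notch2 ranged over 0 to 9.62 CPM (median 1.02) in Ngn3+-like cells and 0 to 58.4 CPM (median 29.9) in ductal-like cells, on 24 and 3181 UMIs. It was lower in 5 of 7 libraries and at 0 in both classes of the others (log2 fold change -3.22 ± 0.51 SE, edgeR adjusted p = 0.00075), and was -3.90 without v2 E12.5 and -2.63 without v2 E17.5. Notch3 ranged over 0 to 11.8 CPM (median 1.02) against 1.86 to 15.6 CPM (median 13.3) and was lower in 7 of 7 libraries (log2 fold change -1.68 ± 0.41 SE, edgeR adjusted p = 0.0022), and was -2.27 without v2 E12.5. Notch1 ranged over 0 to 44.6 CPM (median 6.61) against 11.9 to 48.5 CPM (median 26.6). Lower in 6 of 7 libraries, it was not called (log2 fold change -0.93 ± 0.47 SE, edgeR adjusted p = 0.127). The exception was v2 E12.5, at 44.6 against 26.6 CPM, and without that library Notch1 was called lower (log2 fold change -1.54, edgeR adjusted p = 0.000485). With all 7 libraries, DESeq2 also called it lower (-1.36, adjusted p = 0.015), as did edgeR with clusters made from 1 part of the counts and tested on the rest (-2.14, adjusted p = 3.03e-07).

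Hes1, the Notch target that represses Neurog3, ranged over 0 to 205 CPM (median 88.6) in Ngn3+-like cells and 283 to 1317 CPM (median 803) in ductal-like cells. The groups did not overlap (log2 fold change -3.14 ± 0.44 SE, edgeR adjusted p = 0.0010). A set of 8 immediate-early genes, which are known to rise during tissue dissociation, moved with Hes1 here. They summed to 1468 to 4961 CPM in ductal-like and 783 to 2877 CPM in Ngn3+-like cells, higher in ductal-like cells in 7 of 7 libraries, and their part in the Hes1 difference was not tested. Hes6, a family member that counteracts Hes1, moved in the opposite direction, over 509 to 1726 CPM (median 1162) against 71.1 to 151 CPM (median 115), again with no overlap (log2 fold change 3.05 ± 0.11 SE, edgeR adjusted p = 1.39e-13). Hey1, a target used mainly in vessels, ranged over 0 to 23.6 CPM (median 12.2) against 3.90 to 17.7 CPM (median 11.2) and was higher in 4 and lower in 3 of 7 libraries (log2 fold change -0.06 ± 0.28 SE, edgeR adjusted p = 0.875). Top2a, a gene of dividing cells, had a median of 155 CPM in ductal-like and 13.2 CPM in Ngn3+-like cells, and its part in these differences was not tested.

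After thinning each cell to 2000 UMIs and leaving out 4 shallower Ngn3+-like cells, the median share of Ngn3+-like cells with a Hes6 UMI was 84.5% over libraries (94.0% unthinned). The same share was 0.974% (4.72% unthinned) in erythroid cells, which should lack the gene, with median depths of 4440.5 to 13032 UMIs there and 2833 to 7696.5 UMIs in Ngn3+-like cells. For Hes1 the thinned median share was 63.6% in ductal-like cells (83.0% unthinned, 38 shallower cells left out) and 8.62% in Ngn3+-like cells (15.3% unthinned). It was 3.93% in Fev+-like and 2.54% in hormone-like cells against 4.15% in erythroid cells. Erythroid Hes1 ranged over 6.76 to 75.9 CPM between libraries, and the Fev-Cre library had no erythroid sum. Whether Hes1 in Fev+-like and hormone-like cells was background was not tested. The Dll4 share was 9.34% in Ngn3+-like cells (19.1% unthinned), 0.0647% in ductal-like cells and 0% in erythroid cells.

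A list of 44 other pathway genes gave the setting. Of 34 tested in Ngn3+-like against ductal-like cells, 10 were called higher and 4 lower, against 11.5% and 17.4% of all genes tested. Their median log2 fold change was 0.41. The 5 largest were Mfng and Lfng, glycosyltransferase genes whose products change how Notch meets its ligands (log2 fold changes 7.05 and 3.08), Dll3, a divergent ligand (6.20), Numbl, a Numb-like inhibitor (5.26), and Nrarp, a Notch target that feeds back on the pathway (-4.68). Nrarp thus fell with Hes1, at a median of 1.02 CPM in Ngn3+-like and 76.3 CPM in ductal-like cells. Rbpj was also called higher (1.42), as were the ligand ubiquitin ligase genes Neurl1a and Neurl1b (1.91 and 1.86). The list was chosen with results of these data known.

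**Figure D2:**
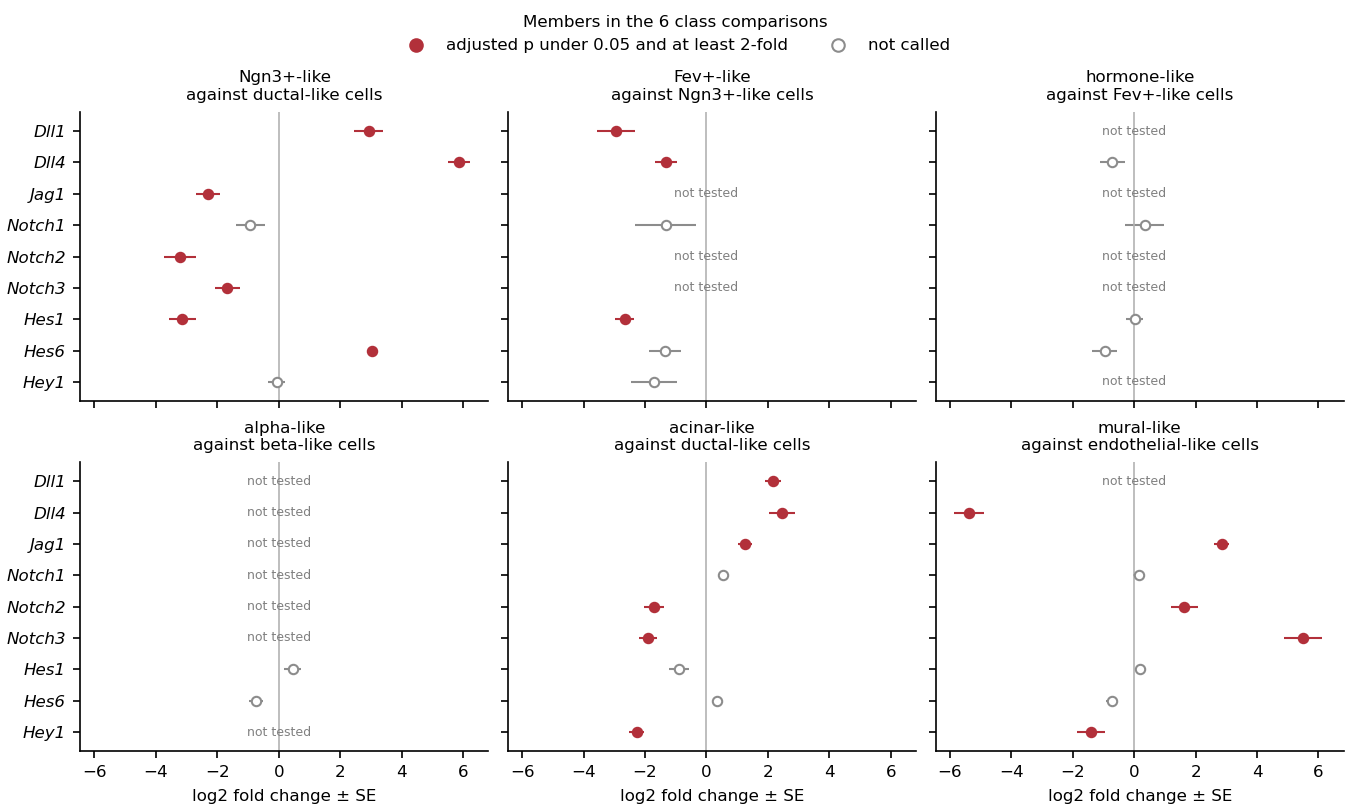
Log2 fold change (x axis) with its standard error for each gene in the 6 comparisons of classes, filled where called. In Ngn3+-like against ductal-like cells Dll1, Dll4 and Hes6 lie to the right and Jag1, Notch2, Notch3 and Hes1 to the left, and in mural-like against endothelial-like cells Notch3 (5.49) and Dll4 (-5.37) lie at opposite ends.

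Fev+-like cells, named for the state that follows in the endocrine lineage, were compared with Ngn3+-like cells in 5 libraries. In v2 E12.5 both classes held like levels of Neurog3 (2645 and 2655 CPM) and differed in Fev (346 against 2.62 CPM). Over the 5 libraries Dll1, Dll4 and Hes1 were called lower in Fev+-like cells and none of the 9 higher, among 6 that passed the filter. Over all 8272 genes tested, 5.20% were called higher and 4.12% lower. Over the 6 genes the median log2 fold change was -1.54 and over all genes 0.01. Jag1, Notch2 and Notch3 had 7 to 22 UMIs in each class over all 5 libraries and were not tested.

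Hes1 stood at 23.8, 24.4, 14.2, 19.5 and 24.5 CPM in the Fev+-like cells of v1 E14.5 batch 1, v1 E14.5 batch 2, v2 E12.5, v2 E14.5 and Fev-Cre, and at 88.6, 46.3, 119, 78.7 and 205 CPM in the Ngn3+-like cells of the same libraries. The groups did not overlap (log2 fold change -2.67 ± 0.30 SE, edgeR adjusted p = 0.00013). Here the summed immediate-early genes went the other way, at 1230 to 6760 CPM in Fev+-like and 783 to 2877 CPM in Ngn3+-like cells, higher in Fev+-like cells in 5 of 5 libraries. In the same order Dll4 stood at 7.92, 8.13, 23.2, 15.2 and 15.6 CPM in Fev+-like cells and at 82.7, 59.5, 29.7, 25.6 and 32.9 CPM in Ngn3+-like cells. It was lower in 5 of 5 libraries with no overlap (log2 fold change -1.32 ± 0.36 SE, edgeR adjusted p = 0.028). The Dll4 call was lost without v1 E14.5 batch 1, v1 E14.5 batch 2, v2 E14.5 or Fev-Cre (edgeR adjusted p = 0.0879, 0.0848, 0.0586 and 0.138), without the block (edgeR adjusted p = 0.053) and with the v2 kit alone (-0.86, edgeR adjusted p = 0.187). Dll1 stood at 0, 8.13, 10.3, 13.0 and 2.39 CPM in Fev+-like cells and at 47.3, 26.5, 83.1, 12.3 and 41.9 CPM in Ngn3+-like cells. These Dll1 values rested on 29 and 170 UMIs, and the 0 of v1 E14.5 batch 1 has an exact Poisson upper limit of 29.2 CPM. Only v2 E14.5 was not lower (log2 fold change -2.94 ± 0.61 SE, edgeR adjusted p = 0.012). Without Fev-Cre the Dll1 call was lost (-2.13, edgeR adjusted p = 0.0795), as it was with the v2 kit alone (-2.93, edgeR adjusted p = 0.141), and without v2 E14.5 it was -3.58 (edgeR adjusted p = 0.00111).

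Hes6 stood at 365, 342, 884, 774 and 145 CPM in the Fev+-like cells of those libraries and at 1418, 1726, 618, 1247 and 509 CPM in the Ngn3+-like cells. It was lower in all but v2 E12.5, the library whose Fev+-like cells held the most Neurog3 (2645 CPM), and was not called (log2 fold change -1.36 ± 0.52 SE, edgeR adjusted p = 0.176). Without v2 E12.5 it was called lower (-1.79, edgeR adjusted p = 0.00586), and it was also called by DESeq2 (-1.41, adjusted p = 0.00616) and by edgeR with the v1 kit alone, with finer clusters (Leiden resolution 2) and with clusters and tests on separate parts of the counts (-2.26, -2.13 and -1.91). Notch1, on 60 and 89 UMIs, and Hey1, on 21 and 46 UMIs, had log2 fold changes of -1.33 ± 0.98 SE and -1.72 ± 0.75 SE (edgeR adjusted p = 0.444 and 0.153). With clusters at resolution 2 both were called lower, Notch1 at -1.40 (edgeR adjusted p = 0.0311) and Hey1 at -5.03 (edgeR adjusted p = 2.26e-06), and Hey1 also with no filter on low counts (-1.70, edgeR adjusted p = 0.0283). Against 5.20% higher and 4.12% lower over all genes tested, 2 of 23 other pathway genes were called higher and 4 lower (median 0.06). They were Lfng (-3.09), Numbl (-2.14), Rbpj (-1.33) and Adam10, a protease gene for the receptor (-1.30), and the co-repressor genes Tle1 (1.36) and Tle3 (1.06).

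In hormone-like cells (alpha, beta, delta and epsilon together) against Fev+-like cells, 6 libraries gave 4 of the 9 genes enough counts to test, and 0 were called by edgeR. None of them had an unadjusted p under 0.05, and DESeq2 called 0. Over all 8860 genes, 3.15% were called higher and 1.69% lower. In the median, the log2 fold change was -0.35 over the 4 genes and 0.00 over all. Hes6 had the largest difference, at 109 to 244 CPM (median 217) against 145 to 884 CPM (median 353). It was lower in 6 of 6 libraries, but the ranges overlapped (log2 fold change -0.97 ± 0.40 SE, edgeR adjusted p = 0.201). Dll4, Notch1 and Hes1 had log2 fold changes of -0.72 ± 0.41, 0.35 ± 0.63 and 0.01 ± 0.27 SE (edgeR adjusted p = 0.289, 0.812 and 0.989). Of 25 other pathway genes tested, 0 were called by edgeR, with a median of -0.18.

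Alpha-like and beta-like cells were compared in 6 libraries, where Hes1 and Hes6 alone could be tested and 0 were called by edgeR or DESeq2. Over all 6392 genes, 3.29% were called higher in alpha-like cells and 3.36% lower. The median log2 fold change was -0.15 over the 2 genes and 0.01 over all. Hes6 was the 1 gene with an unadjusted p under 0.05, at 76.7 to 213 CPM (median 149) in alpha-like and 68.2 to 604 CPM (median 231) in beta-like cells. The value was lower in 4 of 6 libraries (log2 fold change -0.74 ± 0.24 SE, edgeR adjusted p = 0.064). Its highest value, in 26 beta-like cells of v2 E14.5, came with Neurog3 at 1414 CPM and Top2a at 453 CPM, against 0 to 24.6 and 0 to 52.6 CPM in the other beta-like sums. Hes1 ranged over 14.54 to 31.5 CPM (median 16.4) against 4.72 to 33.9 CPM (median 16.1) (log2 fold change 0.45 ± 0.29 SE, edgeR adjusted p = 0.360). Of 18 other pathway genes, 1 was called, Mfng, lower in alpha-like cells (-1.19), and the list's median was -0.25.

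Acinar-like cells, which make digestive enzymes, were set against ductal-like cells in 8 libraries, with all 9 genes tested. Dll1, Dll4 and Jag1, the ligand genes, were higher in acinar-like cells, and Notch2, Notch3 and Hey1 were lower. Over all 13488 genes, 5.43% were called higher and 8.33% lower, against 3 and 3 of the 9. Over the 9 genes the median log2 fold change was 0.33 and over all genes -0.06.

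Dll1 ranged over 3.76 to 38.9 CPM (median 14.45) in acinar-like and 0 to 19.5 CPM (median 4.43) in ductal-like cells and was higher in 8 of 8 libraries (log2 fold change 2.16 ± 0.26 SE, edgeR adjusted p = 2.98e-05). Dll4 was low in both, over 0 to 8.50 CPM (median 2.35) against 0 to 1.51 CPM (median 0.35), and was higher in 6 of 8 libraries (2.45 ± 0.43 SE, edgeR adjusted p = 0.00081). Jag1 ranged over 0 to 31.7 CPM (median 12.9) against 0 to 11.99 CPM (median 6.62), higher in 6 and lower in 2 libraries (1.26 ± 0.23 SE, edgeR adjusted p = 0.00073). For all 3 ligand genes the ranges overlapped. Without the library block Dll1 and Jag1 were still called, and Dll4 did not pass the filter on low counts.

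Notch2 ranged over 0 to 15.1 CPM (median 3.57) in acinar-like and 0 to 58.4 CPM (median 20.2) in ductal-like cells, lower in 6 and higher in 1 of 8 libraries (log2 fold change -1.71 ± 0.32 SE, edgeR adjusted p = 0.0017). Notch3 ranged over 0 to 8.31 CPM (median 1.303) against 1.86 to 15.6 CPM (median 10.5) and was lower in 8 of 8 (-1.90 ± 0.30 SE, edgeR adjusted p = 0.00023). Without the library block neither receptor was called (edgeR adjusted p = 0.154 for Notch2 and 0.0575 for Notch3). Notch1 ranged over 13.0 to 69.8 CPM (median 36.2) against 11.9 to 48.5 CPM (median 28.8), and its log2 fold change of 0.53 ± 0.16 SE (edgeR adjusted p = 0.022) was under 2-fold. Hey1 ranged over 0 to 4.22 CPM (median 1.99) against 3.90 to 17.7 CPM (median 9.90) and was lower in 8 of 8 libraries (-2.27 ± 0.24 SE, edgeR adjusted p = 1.02e-05). Hes1 was also lower in 8 of 8 libraries, at 145 to 740 CPM (median 349) against 283 to 2581 CPM (median 856), but did not pass the test (-0.89 ± 0.33 SE, edgeR adjusted p = 0.073). The summed immediate-early genes were lower in acinar-like cells in 8 of 8 libraries as well, at 922 to 2926 CPM against 1468 to 11335 CPM, and their part was not tested. Hes6 ranged over 42.8 to 173 CPM (median 122) against 71.1 to 162 CPM (median 122) (0.33 ± 0.12 SE, edgeR adjusted p = 0.052).

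Of 41 other pathway genes tested between acinar-like and ductal-like cells, 4 were called higher and 4 lower (median 0.13). Over all genes tested, 5.43% were called higher and 8.33% lower. Rbpjl, the RBPJ relative of the acinar PTF1 complex, rose most (5.11), at a median of 169 CPM against 3.65 CPM. Hes7 (2.35) and Lfng (2.28) were also higher, and the co-activator gene Maml2 (-2.18) and Nrarp (-2.17) were lower. Nrarp was thus higher in ductal-like cells than in both Ngn3+-like and acinar-like cells, 2 comparisons that share the ductal-like sums.

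Mural-like cells were set against endothelial-like cells in 8 libraries, since the classes adjoin in vessel walls, and 8 of the 9 genes were tested. Notch3, Jag1 and Notch2 were higher in mural-like cells, and Dll4 and Hey1 were higher in endothelial-like cells. Over all 8356 genes, 10.3% were called higher in mural-like cells and 11.1% lower, against 3 and 2 of the 8. In the median, the log2 fold change was 0.16 over the 8 genes and 0.01 over all.

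Notch3, the receptor of vascular smooth muscle, ranged over 25.9 to 167 CPM (median 60.1) in mural-like cells and 0 to 3.99 CPM (median 0) in endothelial-like cells, on 422 and 9 UMIs. The groups did not overlap (log2 fold change 5.49 ± 0.61 SE, edgeR adjusted p = 1.82e-05), and the value was 7.95 without v2 E12.5 and 4.17 without v2 E17.5. Dll4 ranged over 0 to 2.93 CPM (median 0) against 6.37 to 89.2 CPM (median 37.6), on 5 and 215 UMIs, also without overlap (-5.37 ± 0.49 SE, edgeR adjusted p = 4.77e-09). It was -5.98 without v1 E12.5. Dll4 and Notch3 thus lay in opposite classes. Jag1 ranged over 5.35 to 104 CPM (median 47.3) against 0 to 14.45 CPM (median 4.13) and was higher in 8 of 8 libraries (2.85 ± 0.24 SE, edgeR adjusted p = 9.33e-10). Its 4 highest mural-like values were those of the 3 v2 libraries and the Fev-Cre library (65.3 to 104 CPM, against 5.35 to 29.3 CPM with the v1 kit).

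Notch2 ranged over 0 to 28.0 CPM (median 11.5) in mural-like and 0 to 8.47 CPM (median 0) in endothelial-like cells and was higher in 6 of 8 libraries (log2 fold change 1.63 ± 0.44 SE, edgeR adjusted p = 0.0047). Hey1 ranged over 0 to 32.2 CPM (median 16.8) against 8.46 to 89.2 CPM (median 36.6) and was lower in 6 of 8 (-1.40 ± 0.45 SE, edgeR adjusted p = 0.030). The Hey1 call was lost without v1 E14.5 batch 1, v2 E14.5, v2 E17.5 or Fev-Cre (edgeR adjusted p = 0.07, 0.0779, 0.0558 and 0.0814), with doublets kept (edgeR adjusted p = 0.0603), with the v1 kit alone (-0.92, edgeR adjusted p = 0.267) and with clusters made from 1 part of the counts and tested on the rest (-0.95, edgeR adjusted p = 0.226). Notch1 and Hes1 stood at like levels, with medians of 48.7 and 328 CPM in mural-like and 38.3 and 281 CPM in endothelial-like cells (0.14 ± 0.18 and 0.19 ± 0.14 SE, edgeR adjusted p = 0.580 and 0.320). Hes6 was lower in mural-like cells in 7 of 8 libraries, by less than 2-fold (-0.72 ± 0.19 SE, edgeR adjusted p = 0.0040). Dll1 had 2 UMIs in all mural-like cells and 30 in endothelial-like cells and was not tested.

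Red cell transcripts were uneven between these classes: summed erythroid marker genes ranged over 159 to 81221 CPM in endothelial-like and 4.14 to 5617 CPM in mural-like cells, and their part in the differences was not tested. The mesenchymal markers summed to 698 to 5570 CPM in mural-like and 20.4 to 178 CPM in endothelial-like cells. After thinning, the median share of mural-like cells with a Notch3 UMI was 9.75% (25.6% unthinned, 19 shallower cells left out) and that of endothelial-like cells 0%. For Dll4 it was 8.59% of endothelial-like cells (19.5% unthinned, 8 left out) and 0% of mural-like cells. Of 28 other pathway genes tested, 5 were called higher and 7 lower (median -0.10), against 10.3% and 11.1% of all genes tested. Heyl and Hey2, Hey family targets of vessel walls, were higher in mural-like cells (7.64 and 6.01), as was Dlk1, a ligand-like protein gene (4.71), while Mfng (-8.53) and Notch4, an endothelial receptor gene (-3.26), were lower.

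**Figure D3:**
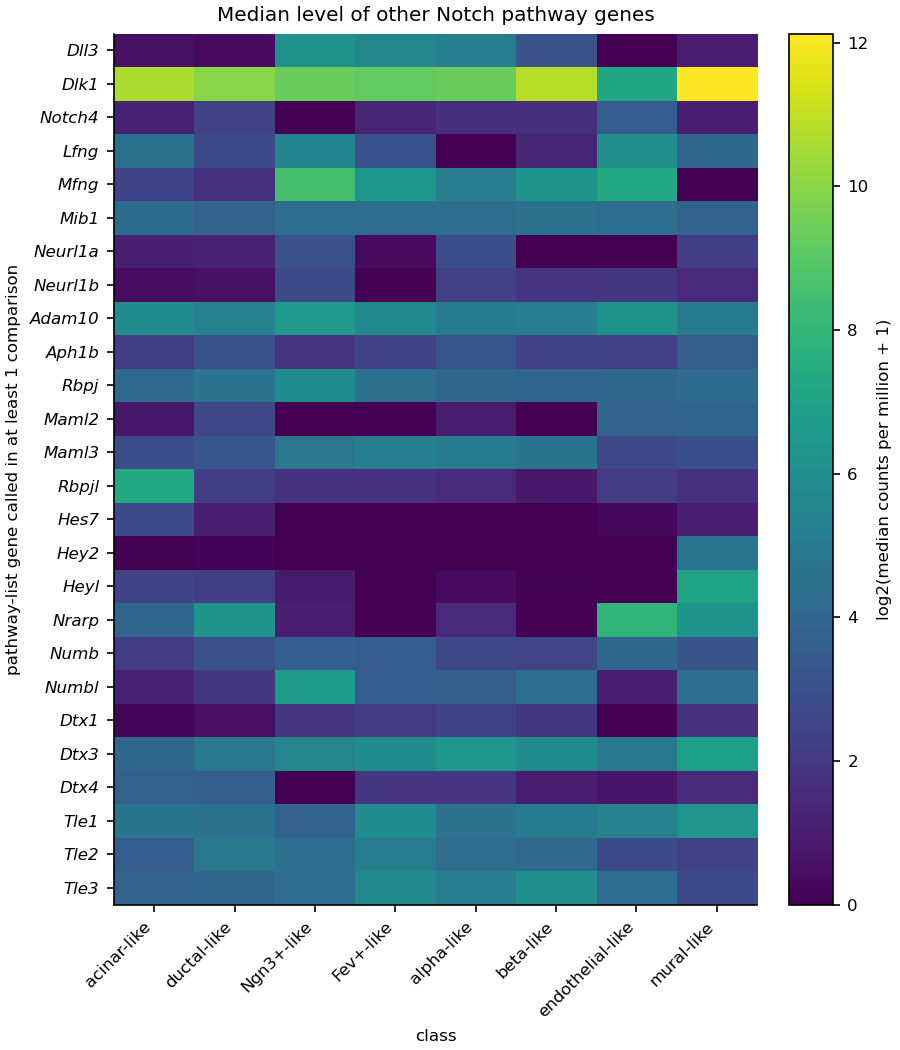
Median level over libraries, as log2(CPM + 1), of the other pathway genes called in at least 1 comparison (y axis) in 8 classes (x axis). Mfng and Numbl were highest in Ngn3+-like cells (372 and 102 CPM), Rbpjl in acinar-like cells (169 CPM), Nrarp in endothelial-like cells (240 CPM) and Heyl in mural-like cells (135 CPM).

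Across the 8 classes, the order of median levels of Hes1 ran from ductal-like (856 CPM) through acinar-like (349), mural-like (328), endothelial-like (281) and Ngn3+-like (88.6) to Fev+-like (24.1), alpha-like (16.4) and beta-like cells (16.1 CPM). Every pair of neighbours in this order had overlapping ranges, among them Ngn3+-like (0 to 205 CPM) and Fev+-like cells (14.2 to 33.5 CPM). The overlap of these 2 classes came from 0 counts in the 20 Ngn3+-like cells of v1 E12.5 (95% exact Poisson upper limit 48.7 CPM). That library gave no Fev+-like sum, and the next lowest Ngn3+-like value was 46.3 CPM. Hes6 ran from Ngn3+-like (1162 CPM) through Fev+-like (353) and beta-like (231) to alpha-like (133), acinar-like and ductal-like cells (122 CPM each), endothelial-like (57.5) and mural-like cells (36.2 CPM), again with overlapping neighbours. The Notch1 medians lay between 28.8 and 48.7 CPM in acinar-like, ductal-like, endothelial-like and mural-like cells and between 5.15 and 9.29 CPM in the 4 endocrine classes, whose highest sums (14.6 to 48.8 CPM) reached into the ranges of the former. Dll4 ran from Ngn3+-like (39.6 CPM) and endothelial-like (37.6) through Fev+-like (11.7), alpha-like (6.95) and beta-like (3.41) to acinar-like (2.35), ductal-like (0.35) and mural-like cells (0 CPM). The ranges of Ngn3+-like (25.6 to 82.7 CPM) and endothelial-like cells (6.37 to 89.2 CPM) overlapped. Delta-like and epsilon-like cells, which reached 20 cells in 4 and 3 libraries, were left out of these orders. Their medians were 13.1 and 14.6 CPM for Dll4 (on 23 and 13 UMIs), 18.3 and 49.8 CPM for Hes1 and 116 and 252 CPM for Hes6. The Dll4 medians come from other sets of libraries than that of Fev+-like cells. In v2 E14.5 and Fev-Cre, epsilon-like cells held Dll4 at 14.6 and 7.46 CPM, against 15.2 and 15.6 CPM in Fev+-like cells. In v1 E17.5, v2 E14.5 and Fev-Cre, delta-like cells held it at 28.9, 6.47 and 17.8 CPM, against 6.70, 15.2 and 15.6 CPM. Levels are compared within a gene only.

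Over the 59 sums of library and class, the gene whose log2(CPM + 5) followed that of each Notch gene most closely among 10540 genes was Hkdc1 for Dll1 (r = 0.70), Trp53i11 for Dll4 (0.81), Nexn for Jag1 (0.81), Yap1 for Notch1 (0.83), Map3k1 for Notch2 (0.75), Tagln for Notch3 (0.90), Cyr61 for Hes1 (0.92), Gdpd1 for Hes6 (0.92) and Spata6 for Hey1 (0.83). The next for Notch3 were Cspg4 and Acta2 (0.89 each), the latter a marker used to name mural-like cells, and the next for Hes6 was Btbd17 (0.92), also a class marker. Cyr61, the closest for Hes1, is an immediate-early gene, of the kind known to rise during tissue dissociation. These correlations are descriptions, since the sums share libraries, kits and depth.

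Stage was examined within each class with 7 libraries of Swiss Webster embryos, as E17.5 against E12.5 with the kit as a term. Digestion lasted longer at later stages, so that stage and dissociation time cannot be told apart. With the v2 kit each stage was also processed on a different day, so that stage and day cannot be told apart there. With the v1 kit, the E12.5 library, the E17.5 library and 1 of the E14.5 libraries shared a batch. Batch and day were not terms of the model. Each kit had 1 library at E12.5 and 1 at E17.5, and the E14.5 libraries entered to estimate the spread. A test was made only where both kits had both stages with 20 or more cells. This left out Ngn3+-like cells (9 in v1 E17.5) and Fev+-like cells (16 in v1 E12.5 and no cluster of that name in v2 E17.5), although a model over the remaining libraries could have been fitted.

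Hes1 rose with stage in ductal-like cells. It stood at 371 CPM (95% exact Poisson interval 300 to 454, which covers counting error only) at E12.5 with the v1 kit, at 801 and 803 CPM in the E14.5 batches and at 2581 CPM (2456 to 2712) at E17.5. With the v2 kit it stood at 283, 1317 and 908 CPM, and in the Fev-Cre library at 1281 CPM. Both kits were thus higher at E17.5 than at E12.5, and the v2 libraries were highest at E14.5 (log2 fold change 2.48 ± 0.54 SE, edgeR adjusted p = 0.023). The value was 1.36 without v1 E17.5 (edgeR adjusted p = 0.0164) and 3.28 without v2 E17.5 (edgeR adjusted p = 7.27e-05), and the call was lost without v1 E14.5 batch 2 or v2 E12.5 (edgeR adjusted p = 0.0701 and 0.151). Of 8 genes tested 1 was called higher and 0 lower, against 5.36% and 2.33% of 10353 genes. The median log2 fold change was 0.07 over the 8 genes and 0.01 over all.

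In the same ductal-like sums, the 8 immediate-early genes summed to 1813, 4918, 4206 and 11335 CPM in order of stage with the v1 kit and to 1468, 4961 and 2583 CPM with the v2 kit. Hes1 and this sum had the same order over the stages within each kit, and its part in the Hes1 difference was not tested. The immediate-early list was added after the data were seen. Of the other genes in ductal-like cells, Dll1 and Hey1 had unadjusted p under 0.05. Dll1 stood at 19.5, 6.09, 7.45 and 0 CPM with the v1 kit and 3.56, 3.59 and 0.818 CPM with the v2 kit (log2 fold change -2.69 ± 0.82 SE, edgeR adjusted p = 0.058), and was called lower without v1 E14.5 batch 1 (edgeR adjusted p = 0.00462), by DESeq2 (adjusted p = 0.0367) and by edgeR with RLE scaling, no filter or resolution 2 (adjusted p = 0.0498, 0.0244 and 0.0375). Hey1 stood at 7.81, 13.8, 11.2 and 4.89 CPM and at 17.7, 8.62 and 3.90 CPM (-1.86 ± 0.57 SE, edgeR adjusted p = 0.060), and was called lower without v1 E12.5, v1 E14.5 batch 1 or v2 E14.5 (edgeR adjusted p = 0.019, 0.0014 and 0.0165) and with RLE scaling or no filter (0.0492 and 0.0376). Jag1, Notch1, Notch2, Notch3 and Hes6 had log2 fold changes of 0.10, 0.04, 1.02, -1.01 and 0.10 (edgeR adjusted p = 0.962, 0.979, 0.399, 0.457 and 0.910). Of 31 other pathway genes tested, Tle2 (1.79) was called higher and Nrarp (-1.68) and Dlk1 (-1.51) lower (median 0.07). Over all genes tested, 5.36% were called higher and 2.33% lower. Nrarp and Hes1, both Notch targets, thus differed in direction.

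Endothelial-like cells also had more Hes1 at E17.5, at 70.1, 258, 305 and 473 CPM over the v1 libraries in order of stage, and at 94.2, 425 and 190 CPM over the v2 libraries (log2 fold change 1.97 ± 0.44 SE, edgeR adjusted p = 0.023). The value was 2.99 without v2 E17.5 (edgeR adjusted p = 9.49e-06), and the call was lost without v1 E14.5 batch 2 (1.90, edgeR adjusted p = 0.0605), without v1 E17.5 (1.11, edgeR adjusted p = 0.127) and without the kit term (edgeR adjusted p = 0.11). Among 5 genes tested 1 was called higher and 0 lower, against 2.80% and 1.09% of 5497 genes. Over the 5 genes the median log2 fold change was 0.65 and over all genes 0.01. The immediate-early genes summed to 1407, 3656, 4441 and 6524 CPM over the same v1 libraries and to 1493, 4367 and 1805 CPM over the v2 libraries, in the same order as Hes1 over the stages, and their part was not tested. Dll4 had an unadjusted p under 0.05 but was not called (1.13 ± 0.49 SE, edgeR adjusted p = 0.272), and Notch1, Hes6 and Hey1 had log2 fold changes of 0.35, -0.53 and 0.65 (edgeR adjusted p = 0.818, 0.605 and 0.693). Of 11 other pathway genes 1 was called, Lfng (2.44, list median 0.42).

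In mural-like cells Notch3 was higher at E17.5. It stood at 38.1, 90.5, 77.6 and 118 CPM over the v1 libraries and at 39.0, 25.9 and 167 CPM over the v2 libraries, with 42.5 CPM in the Fev-Cre library (log2 fold change 2.06 ± 0.44 SE, edgeR adjusted p = 0.013). With both kits the E17.5 library was highest. The call was lost without v1 E12.5 (1.75, edgeR adjusted p = 0.084), without v2 E17.5 (1.16, edgeR adjusted p = 0.542) and without the kit term (edgeR adjusted p = 0.0569). Among 7 genes tested 1 was called higher and 0 lower, against 4.59% and 1.08% of 8338 genes. In the median, the log2 fold change was 0.27 over the 7 genes and 0.01 over all. Hey1 stood at 32.2, 16.0, 22.9 and 0 CPM and at 22.8, 6.47 and 5.31 CPM (-2.33 ± 0.74 SE, edgeR adjusted p = 0.090), and was called lower without v2 E14.5 (edgeR adjusted p = 0.0348) and with no filter (0.0249). Hes1 had an unadjusted p under 0.05 but was not called (0.81 ± 0.37 SE, edgeR adjusted p = 0.266), and Jag1, Notch1, Notch2 and Hes6 had log2 fold changes of -0.27 to 0.49 (edgeR adjusted p = 0.784 to 0.977). Of 26 other pathway genes 1 was called, Rbpj (2.19, list median 0.14).

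In acinar-like cells Notch3 and Hey1 were called lower at E17.5 and none higher among the 9 tested, against 8.18% lower and 10.1% higher of 11605 genes. Notch3 stood at 8.31, 1.39, 1.21 and 0 CPM over the v1 libraries and at 7.12, 0.916 and 0.680 CPM over the v2 libraries (log2 fold change -2.57 ± 0.85 SE, edgeR adjusted p = 0.024). Hey1 stood at 3.32, 1.39, 2.43 and 0 CPM and at 4.22, 1.54 and 0.227 CPM (-3.33 ± 1.01 SE, edgeR adjusted p = 0.013). For both genes E12.5 was highest with both kits. With the v1 kit the 95% exact Poisson intervals of E12.5 and E17.5 overlapped, so that kit alone gave no direction beyond counting error. With the v2 kit they lay apart. The v1 E12.5 values rested on 5 Notch3 and 2 Hey1 UMIs, and the 40 acinar-like cells of v1 E17.5 had 0 counts. There 3 counts would be 21.8 CPM, and the 95% exact Poisson upper limit is 26.8 CPM. Both calls were lost without v2 E12.5 (edgeR adjusted p = 0.389 and 0.397), without v2 E17.5 (-9.38 and -8.14, edgeR adjusted p = 0.639 and 0.762, with E17.5 then resting on the library with 0 counts), with clusters at resolution 2 (0.0706 and 0.103) and with DESeq2 (adjusted p = 0.0752 and 0.0965), which called 0 of the 9. Hes1 stood at 231, 363, 335 and 145 CPM with the v1 kit and at 184, 486 and 518 CPM with the v2 kit, so that it was lower at E17.5 with the v1 kit, where the 95% exact Poisson intervals overlapped, and higher with the v2 kit (1.29 ± 0.45 SE, edgeR adjusted p = 0.058). It was called higher without any 1 of v1 E12.5, v1 E14.5 batch 1, v1 E14.5 batch 2, v1 E17.5 or v2 E14.5 (edgeR adjusted p = 0.000221, 0.00066, 0.0055, 3.69e-06 and 0.00184) and with RLE scaling, no filter or resolution 2 (0.0242, 0.003 and 0.00688), and was 0.43 without v2 E12.5 and -0.01 without v2 E17.5. Without v1 E14.5 batch 1, Jag1 and Notch2 were also called lower (-1.23 and -1.55, edgeR adjusted p = 0.0316 and 0.0147), and Jag1 also at resolution 2 (-1.42, edgeR adjusted p = 0.0454). With all libraries Jag1 and Hes6 had an unadjusted p under 0.05 but were not called (-1.24 and -0.72, edgeR adjusted p = 0.103 and 0.104), nor were Dll1 (-1.01), Dll4 (1.16), Notch1 (-0.14) and Notch2 (-1.36, edgeR adjusted p = 0.176, 0.325, 0.855 and 0.184). The median log2 fold change was -1.01 over the 9 genes and -0.05 over all. Of 35 other pathway genes, 4 were called higher and 3 lower (median 0.02), among them Rbpjl (3.61), Hes7 (3.49), Nrarp (-2.53), Dlk1 (-2.39) and Mib1, a ubiquitin ligase gene for ligands (2.13).

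Hormone-like cells gave 3 testable genes, and edgeR and DESeq2 called 0 of them, with 0 at an unadjusted p under 0.05. Over 8054 genes, 4.38% were called higher at E17.5 and 2.56% lower. Hes6 had a log2 fold change of 0.36 ± 0.31 SE, Hes1 of 0.00 ± 0.59 SE and Dll4 of -0.65 ± 0.63 SE (edgeR adjusted p = 0.590, 0.999 and 0.642). The makeup of the class changed with stage: alpha-like cells were 88.5% and 92.5% of it at E12.5 with the v1 and v2 kits, and beta-like cells were 48.4% and 50.6% of it at E17.5. Over the 3 genes the median log2 fold change was 0.00 and over all genes -0.01. Of 23 other pathway genes, Dll3 was called lower (-3.60) and Dlk1 higher (1.36) (median 0.29).

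**Figure D4:**
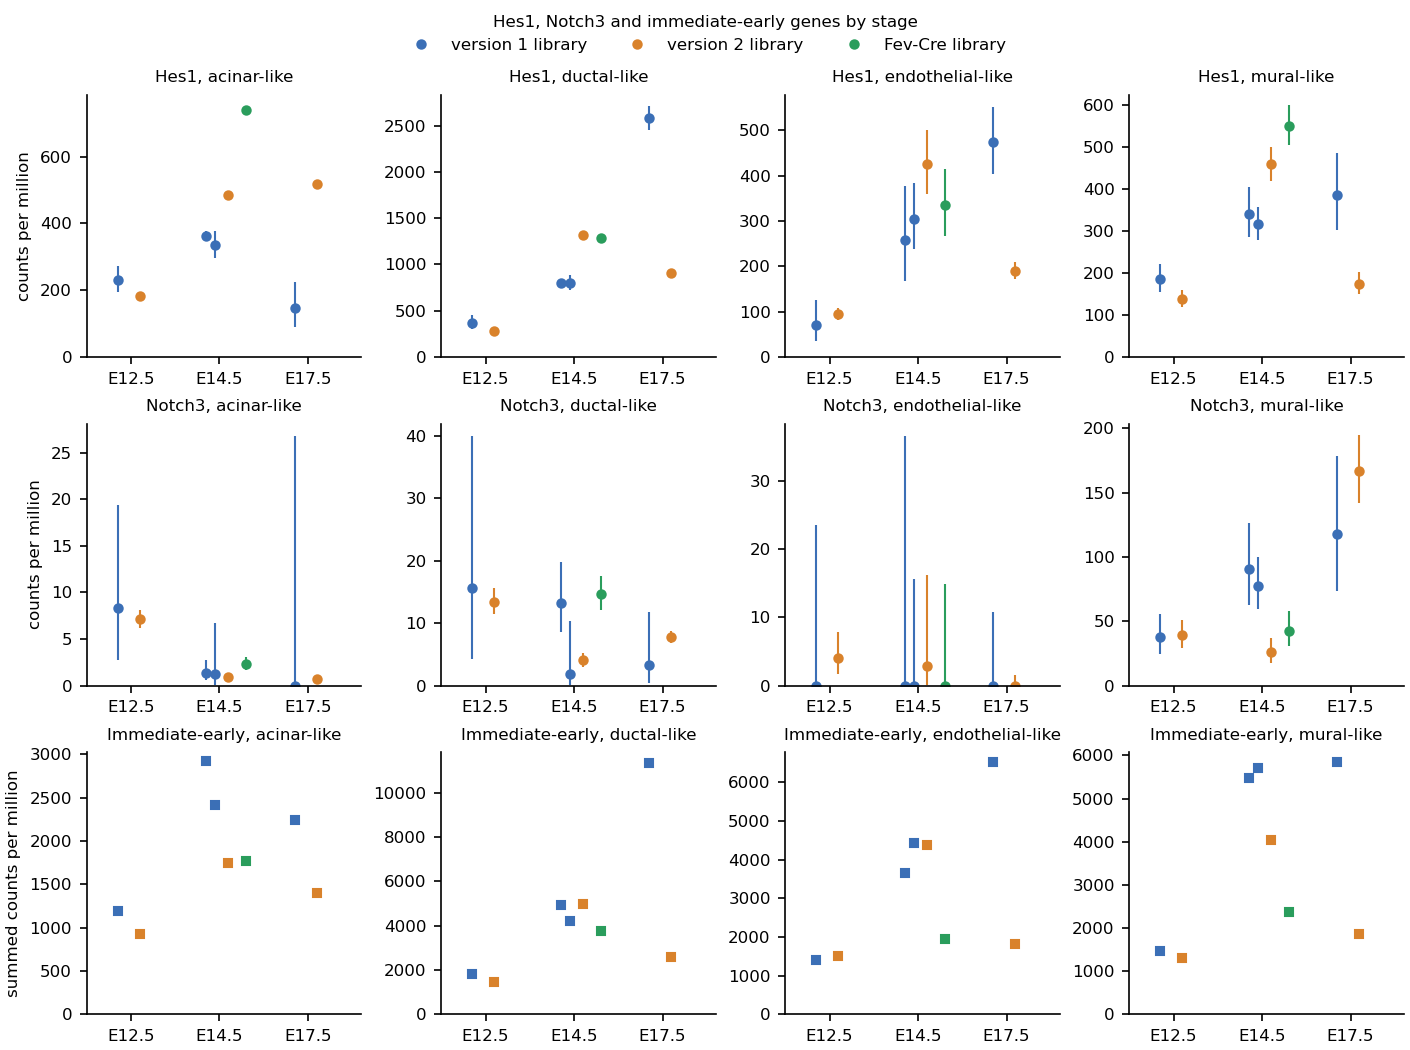
Hes1, Notch3 (CPM, with 95% exact Poisson intervals, counting error only) and the summed immediate-early genes (summed CPM) by embryonic day in 4 classes, 1 point for each library. Hes1 in ductal-like cells rose from 371 to 2581 CPM with the v1 kit and went through 283, 1317 and 908 CPM with the v2 kit, and Notch3 in mural-like cells was highest at E17.5 with both kits (118 and 167 CPM).

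In Ngn3+-like cells the v2 libraries gave single values by stage. Dll1 stood at 83.1 CPM (95% exact Poisson interval 67.2 to 102) at E12.5, 12.3 CPM (6.34 to 21.4) at E14.5 and 10.4 CPM (5.85 to 17.2) at E17.5. Its E12.5 interval lay apart from the other two. Dll4 stood at 29.7, 25.6 and 54.3 CPM, Notch1 at 44.6, 1.02 and 4.87 CPM and Hes6 at 618, 1247 and 820 CPM over the same stages. Dll1 and Notch1 were thus highest at E12.5 and Hes6 at E14.5 among these v2 libraries, which have no replicate and were processed on different days. What the class held also differed: Neurog3 stood at 2655, 2671 and 6965 CPM and Fev at 2.62, 26.6 and 68.9 CPM over these stages. In v2 E17.5 no cluster was named Fev+-like, and 86 Ngn3+-like cells were left out as doublets. The part of this in the differences was not tested. The v1 E12.5 library, with 20 cells, had 0 counts of Dll1 and Notch1 (95% exact Poisson upper limit 48.7 CPM each). That limit is below the v2 E12.5 interval for Dll1 but above the v2 E12.5 value for Notch1. Hes6 was lower at E12.5 than at E14.5 with the v1 kit too, at 1162 CPM against 1418 and 1726 CPM. The 95% exact Poisson intervals of v1 E12.5 (932 to 1432 CPM) and v1 E14.5 batch 1 (1244 to 1609 CPM) overlapped. In the Fev-Cre library at E14.5 Hes6 stood at 509 CPM, below the E12.5 values of both kits. In the v1 E14.5 batches Dll1 stood at 47.3 and 26.5 CPM and in the Fev-Cre library at 41.9 CPM, all above the v2 E14.5 value of 12.3 CPM.

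Some genes differed between the libraries of the kits. Kit went together with sequencing instrument, Cell Ranger version and collection day, and in the Swiss Webster libraries with the CD140a depletion. Their parts cannot be told apart. Notch2 in ductal-like cells stood at 29.9 to 58.4 CPM in the v2 and Fev-Cre libraries and at 0 to 10.5 CPM in the v1 libraries, and in mural-like cells at 17.6 to 28.0 CPM against 0 to 5.32 CPM. Jag1 in ductal-like cells stood at 7.70 to 11.99 CPM against 0 to 5.53 CPM. These levels do not overlap between the libraries of the kits, and how often this occurs over all genes is not given. The comparisons of classes above were made within libraries. Of the 26 calls on the 9 genes in the 11 comparisons, 16 were kept in every setting that could test them and 10 were lost in 1 or more.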

How the data were processed

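Gene by cell tables of UMI counts, deposited by the authors, were used as raw counts. Per the labels and the study's methods they came from Cell Ranger (versions 1.1 and 2.1 in the submitters' processing notes) on mm10, with reporter sequences added for the Fev-Cre library. Cells with at least 200 genes were kept, and 3299 (5.69%, 1.26% to 10.0% per library) were set aside as doublets by marker mixing. The loss was uneven between classes. Of Ngn3+-like cells in v2 E17.5, 86 were set aside and 182 kept. For Fev+-like cells these numbers were 40 and 130 in v2 E12.5, 26 and 78 in v2 E14.5, and 4 and 766 in Fev-Cre. Whether single cells between states were among those set aside was not tested. Each library was clustered (Leiden, leidenalg 0.10.2, resolution 1, 2000 variable genes without the 9 genes and the 44 pathway genes, 20 components), and clusters were named from marker lists, with a score of at least 0.35, a gap of 0.1 and 3 or more markers, thresholds set after clusters were seen. Counts were summed per class and library (20 or more cells). Sums were compared with edgeR 4.0.16 (R 4.3.3; TMM, filterByExpr, quasi-likelihood test, Benjamini-Hochberg adjustment over all genes), with the library as a block between classes and the kit as a term between stages. The block rested on classes taken from 1 library. Deviations of the 2 classes of a library correlated at 0.176 to 0.793. Alternatives were DESeq2 1.42.0, RLE scaling, no filter, no block or kit term, each kit alone, each library left out, resolution 2, doublets kept, and clusters from 1 part of the counts with tests on the rest. The test script was tested on simulated data. All 9 genes are reported, with up to the 5 largest called genes of the pathway list, and Rbpj, Neurl1a, Neurl1b and Tle3 were named after their values were seen. The genes and lists were chosen with earlier results of these data known. P-values measure the spread between pooled libraries.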

Additional observations from a re-analysis of the deposited data

Results flagged for a closer look

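Hes6 in hormone-like cells differed between stages in opposite directions with the kits. With the v1 kit it stood at 110 CPM at E12.5 and 211 CPM at E17.5, and with the v2 kit at 140 CPM and 75.4 CPM, each beyond the 95% exact Poisson intervals, which cover counting error only. The class was mostly alpha-like cells at E12.5 (88.5% and 92.5% with the v1 and v2 kits), while beta-like cells were 48.4% and 50.6% of it at E17.5. That change in makeup had the same direction with both kits. In alpha-like cells alone Hes6 stood at 114 CPM (81.8 to 153) and 143 CPM (86.2 to 224) with the v1 kit, with overlapping intervals, and at 123 and 76.7 CPM with the v2 kit, so that no opposite directions beyond counting error were seen there. Beta-like cells were too few to sum at E12.5. At E17.5 they held Hes6 at 274 CPM (223 to 334) with the v1 kit and 68.2 CPM (63.9 to 72.7) with the v2 kit. Delta-like cells held it at 79.4 CPM (39.6 to 142) and 104 CPM (88.2 to 122) there, with overlapping intervals. The difference between the kits was not tested, and each kit had 1 library at E12.5 and 1 at E17.5.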

How the results depend on the processing

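Of 995 alternative values, 887 kept their direction and their side of the threshold, or stayed within 1.5 times a count. The deviations of the classes paired by library, so the block stayed in the comparisons. With no replicate block, the calls on the 9 genes fell from 7 to 4 (Ngn3+-like against ductal-like), from 3 to 1 (Fev+-like against Ngn3+-like), from 6 to 3 (acinar-like against ductal-like) and from 5 to 2 (mural-like against endothelial-like), calls over all genes went to 1844, 280, 1041 and 912, to 121 (hormone-like against Fev+-like) and to 185 (alpha-like against beta-like), and Hey1 in Ngn3+-like against ductal-like cells was 0.019. The filter on low counts depends on the model and is stricter with no block, so most of these calls were no longer tested: Jag1, Notch2 and Notch3 in Ngn3+-like, Dll1 in Fev+-like, Dll4 in acinar-like and Dll4, Jag1 and Notch2 in mural-like cells. Dll4 in Fev+-like and Notch2 and Notch3 in acinar-like cells were tested and lost.

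In Ngn3+-like against ductal-like cells the v1 kit alone gave 3 calls on the 9 genes (Dll1, Jag1, Notch2 and Notch3 were not tested there, and Dll4, Hes1 and Hes6 were kept) and 1274 in all, against 3002, and Hey1 was 0.079 at resolution 2 and -0.057 to 0.10 with 1 library left out (0.058 without v1 E12.5, 0.0061 without v2 E14.5 and 0.052 without Fev-Cre). In Fev+-like against Ngn3+-like cells either kit alone and the split counts gave 1 call (Dll1, Dll4 and Hes1 were not tested with the v1 kit alone or split counts) and resolution 2 gave 6, with 1 to 4 when 1 library was left out. Over all genes the v2 kit alone gave 255 calls, resolution 2 gave 1759 and leaving out 1 library 298 to 970, against 771. Against Fev+-like cells, hormone-like cells gave 773 calls with no filter and 127 with the v2 kit alone, against 429, and Hes1 was -0.018 with DESeq2 and -0.25 to 0.11 with 1 library left out (-0.019 without v1 E14.5 batch 1). Alpha-like against beta-like cells gave 1083 with no filter, 266 with the v2 kit alone and 708 at resolution 2, against 425, and Hes1 was -0.27 at resolution 2. Acinar-like against ductal-like cells gave 1 call on the 9 genes with the v1 kit alone (Dll1, kept, while the other called genes were not tested there), with 898 in all, and 837 with the v2 kit alone, against 1855. Mural-like against endothelial-like cells gave 2 calls on the 9 genes with the v1 kit alone (Jag1 and Notch2 not tested, Hey1 lost), 3 with split counts (Notch2 not tested, Hey1 lost) and 3 to 5 with 1 library left out. Over all genes they gave 2724 with no filter, 1117 with the v1 kit alone and 1138 with split counts, against 1782, and Notch1 was -0.24 at resolution 2 and -0.49 with split counts.

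Between stages, calls on the 9 genes in acinar-like cells were 0 with DESeq2 and 0 to 5 with 1 library left out (5 without v1 E14.5 batch 1), and calls over all genes were 1185 with no kit term and 404 to 3298 with 1 library left out (870 without v2 E12.5), against 2117. Notch1 was 0.040 at resolution 2. In ductal-like cells calls on the 9 genes were 2 with DESeq2 or resolution 2, 3 with RLE scaling or no filter and 0 to 3 with 1 library left out. Over all genes they were 1346 with no filter, 452 with no kit term and 179 to 1685 with 1 library left out (351 without v2 E17.5), against 796. Jag1 was -0.0042 with no kit term and Notch1 -0.29 at resolution 2. In hormone-like cells calls over all genes were 930 with no filter, 199 with no kit term and 242 to 842 with 1 library left out (300 without v2 E17.5), against 559. Hes1 was -0.066 with DESeq2, -0.0010 with RLE scaling, -0.020 with no kit term, -0.30 at resolution 2 and -0.15 with doublets kept. In endothelial-like cells calls on the 9 genes were 0 with no kit term and 0 to 1 with 1 library left out, and calls over all genes were 132 with DESeq2, 363 with no filter, 43 with no kit term and 79 to 267 with 1 library left out (99 without v2 E12.5), against 214. In mural-like cells calls on the 9 genes were 2 with no filter, 0 with no kit term and 0 to 2 with 1 library left out, and calls over all genes were 787, 214 and 128 to 623 (288 without v1 E12.5 and 245 without v2 E12.5), against 473. Hes6 was -0.025 with no filter and -0.082 with no kit term.

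With 1 library left out, log2 fold changes that changed sign ranged as follows. In acinar-like cells Dll4 ranged from -8.03 to 9.08, Notch1 from -2.08 to 0.25 and Hes1 from -0.014 to 2.05, in ductal-like cells Notch1 from -0.42 to 1.04 (-0.35 without v1 E12.5 and -0.036 without v1 E14.5 batch 1) and Hes6 from -0.24 to 0.51 (-0.023 without v1 E12.5), and in hormone-like cells Hes1 from -1.17 to 0.86 (-0.39 without v1 E17.5) and Hes6 from -0.28 to 1.05. In endothelial-like cells Notch1 ranged from -0.71 to 0.97 and Hey1 from -0.38 to 1.00, and in mural-like cells Notch1 from -0.38 to 1.47 (-0.14 without v2 E17.5), Notch2 from -2.97 to 3.57 and Hes6 from -0.47 to 0.49 (-0.0064 without v2 E17.5). The causes of these changes were not tested. Ngn3+-like and Fev+-like sums of the v1 kit held few cells, so low counts limit the receptor genes there, and E12.5 and E17.5 had 1 library per kit each.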

Other observations

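Outside the 10 classes, immune and neural clusters also held Hes1. Its median was 480 CPM in immune-like cells (145 to 1531 CPM over libraries) and 468 CPM in neural-like cells. Mesenchymal-like cells had a median of 325 CPM, and mesothelial-like cells stood lower, at 27.4 CPM. Notch3 had a median of 16.1 CPM in mesenchymal-like cells, and Dll1 one of 9.41 CPM in immune-like cells (1.64 to 47.2 CPM). These classes are given as values, without a test.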
